A study of Mus musculus with 12 samples.

Results

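Complement and coagulation proteins are the plasma proteins of innate defence and of blood clotting, and most are made by hepatocytes. They were followed here in mouse liver through 39 listed genes, matched by symbol to the platform annotation of the array. The list was chosen with earlier results of these data known. Of these 39, 36 were measured by a probe set that names that gene and no other, among 19938 genes in all. The 36 fall into 20 coagulation and fibrinolysis genes and 16 complement genes. Klkb1 (plasma prekallikrein) shared its probe set's label with another gene, and no row carried the symbol of C3 or Cpb2, so these 3 were not analysed here.

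Livers came from 6 K289R mice and 6 WT mice, 1 array per mouse, all male and on the C57BL/6J background. The K289R mice carry a knock-in at Nr5a2, which encodes LRH-1, and it replaces a lysine of the receptor by an arginine. That lysine is an attachment site of the small protein SUMO. Mice of both genotypes went without food for 24 h and then had 6 h of refeeding, so fasting and refeeding are shared and are not tested. The labels do not give the age of the mice, and the knock-in is not restricted to hepatocytes by any label. The genotype label of WT 4 runs the strain name on after WT, and its title and source label name it WT.

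LRH-1 is a nuclear receptor of hepatocytes known for control of bile acid and cholesterol genes, and in mouse liver it is also known to restrain the induction of acute phase genes, with SUMO attachment needed for that restraint. In complement, recognition proteins and serine proteases of the classical, lectin and alternative pathways converge on the splitting of C5, after which C6, C7, C8 and C9 assemble into a pore in the target membrane. In coagulation, a chain of serine proteases ends in thrombin, which makes fibrin, while antithrombin and related inhibitors hold the chain in check and plasmin dissolves the clot. Several of these genes are acute phase genes, which the liver makes more of in inflammation.

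The comparison asks which of these transcripts differ between K289R and WT livers in the refed state. Values are linear probe-set intensities. A gene was called changed at a Benjamini-Hochberg adjusted p under 0.05 over all 19938 genes, by limma. All 36 members were brighter on every array than the highest array median (29.2), with mean intensities from 141 for Pros1 to 4399 for Vtn, so none was near the dim end of the arrays. Hepatocyte marker transcripts were high on every array, with a mean log2 level of 11.7 to 11.8 in K289R and 11.5 to 11.8 in WT.

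Both members that changed were complement genes. Of the 36 members, 2 passed, each lower in K289R: C9, the protein that polymerizes into the complement pore, and Susd4, an inhibitor of complement with sushi domains. Over all genes 0.572% passed in either direction and 0.0903% passed as lower. Because the members were chosen with earlier results of these data known, no excess over all genes is read from their shares. At an unadjusted p under 0.05 there were 9 members (25.0%), all 9 of them complement genes, against 12% of all genes. Coagulation members reached such a p in 5 planned settings: Serpind1 with equal array medians, Serpind1 and Serping1 with a pseudocount of 16, Serping1 without K289R 5, and F13b without K289R 6 and without WT 6. Of these 9, 7 had negative and 2 positive differences. There were 7 such members without K289R 1 and 3, 7 without WT 1 and 3, and 5 without all 4 of these arrays, which stood apart in transcripts described further on. The median log2 fold change was -0.12 over the 16 complement members, 0.01 over the 20 coagulation members and -0.01 over all genes. Groups did not overlap for 3 members (C9, Susd4 and, except with quantile normalization, Serpind1, 8.33% of 36) and for 1.24% of all genes. Because liver tissue was measured in bulk, fewer cells of a type and less RNA per cell cannot be told apart in any of these values.

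**Figure D1:**
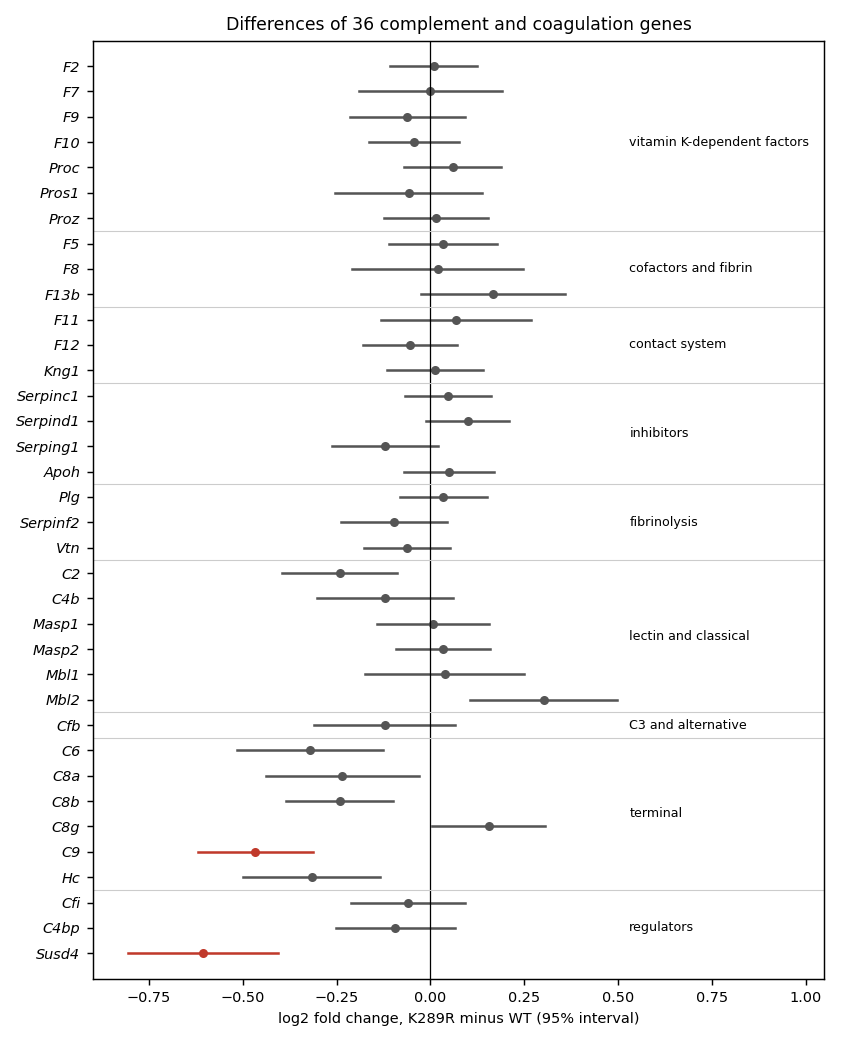
Log2 fold change of K289R minus WT with its 95% interval (horizontal axis) for the 36 measured members, grouped by role down the page. Red marks C9 (-0.47) and Susd4 (-0.61), which passed. Intervals of the 20 coagulation members all reach across 0, whereas 5 of the 6 terminal complement genes lie left of 0.

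**Figure D2:**
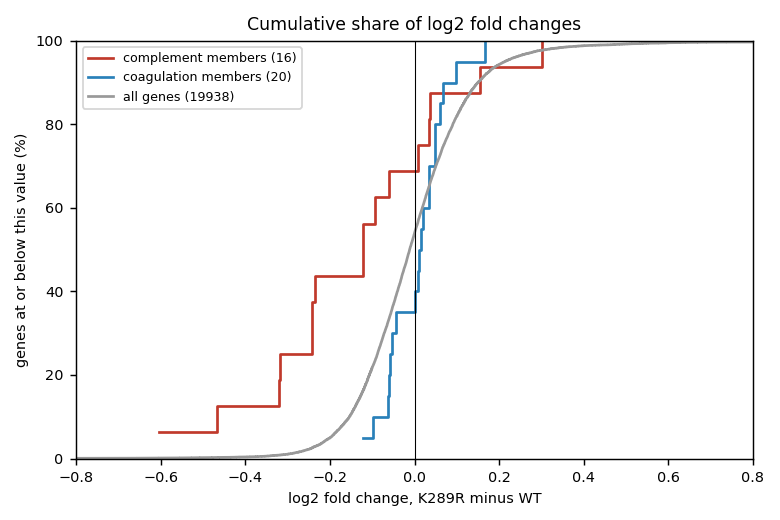
Cumulative share of genes (vertical axis, percent) at or below a log2 fold change of K289R minus WT (horizontal axis) for the 16 complement members, the 20 coagulation members and all 19938 genes. The complement curve lies to the left of the others over its lower part, with a median of -0.12 against 0.01 and -0.01. Members were chosen with earlier results of these data known.

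C9 fell in K289R livers. Its intensity was 695, 891, 824, 950, 889 and 828 on K289R arrays 1 to 6, against 1206, 1196, 1144, 1142, 1156 and 1142 on WT arrays 1 to 6. All 6 K289R arrays lay below all 6 WT arrays, and the WT arrays were close together while K289R 1 was the lowest of its group. Means were 846 ± 87.3 in K289R and 1164 ± 28.9 in WT (SD, n = 6 each). The difference was -0.47 on the log2 scale (95% interval -0.62 to -0.31), so C9 was 1.38-fold lower (limma adjusted p = 0.00426, probe set 10422748). Without K289R 1 and 3 it was -0.39 (adjusted p = 0.0240), without WT 1 and 3 it was -0.46 (adjusted p = 0.0257), and without all 4 arrays it was -0.38 and did not pass (adjusted p = 0.0818).

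The other 5 measured genes of the terminal pathway did not pass over all genes. Of these, 4 had negative log2 differences and C8g had a positive one, each with an unadjusted p under 0.05. Hc, which encodes C5, measured 1536, 1988, 1786, 1779, 1716 and 1884 on K289R arrays 1 to 6, against 2370, 2470, 2497, 2207, 1924 and 1890 on WT arrays 1 to 6. Among the WT arrays, 4 were above every K289R array, while WT 5 and WT 6 lay within the K289R range. The log2 difference of Hc was -0.32 (95% interval -0.50 to -0.13, unadjusted p = 0.00206, limma adjusted p = 0.133), and -0.20 without K289R 1 and 3 and WT 1 and 3 (adjusted p = 0.646).

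C6, which joins the nascent complex after C5b, measured 587, 855, 691, 644, 711 and 778 on K289R arrays 1 to 6, against 749, 917, 910, 833, 907 and 991 on WT arrays 1 to 6. K289R 1 was the lowest array and WT 6 the highest, and the groups overlapped, with K289R 2 above WT 1 and WT 4 and with K289R 6 above WT 1. Its log2 difference was -0.32 (95% interval -0.51 to -0.13, adjusted p = 0.155). Over all settings of processing and arrays the C6 difference ran from -0.38 to -0.25, with limma adjusted p from 0.0852 to 0.480. C7, the next protein of the complex and no member of the set, was dim in these livers, at 21.2 ± 6.71 in K289R and 18.0 ± 2.85 in WT (SD, n = 6 each), and both means lay below the median of every array. K289R 3 and K289R 5, at 29.6 and 28.8, were just above their own array medians, and with values this dim no difference is read from C7.

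C8 is built from 3 chains encoded by C8a, C8b and C8g, and the fitted differences were negative for C8a and C8b and positive for C8g. The pore-forming chain C8a measured 951, 1205, 949, 1105, 1106 and 953 on K289R arrays 1 to 6, against 1326, 1174, 1570, 1082, 1085 and 1174 on WT arrays 1 to 6. C8b, the chain that binds the C5b-7 complex, measured 1543, 1780, 1615, 1569, 1604 and 1548 on K289R arrays 1 to 6, against 1846, 1927, 2182, 1789, 1761 and 1930 on WT arrays 1 to 6. For C8b 5 of 6 K289R arrays were below all WT arrays, whereas for C8a the groups overlapped widely and WT 3 was the highest. Log2 differences were -0.24 for C8a (95% interval -0.44 to -0.03, adjusted p = 0.344) and -0.24 for C8b (95% interval -0.38 to -0.10, adjusted p = 0.141). The C8a difference was -0.12 without WT 1 and 3 (adjusted p = 0.633) and -0.05 without K289R 1 and 3 as well (adjusted p = 0.908), and that of C8b was -0.19 without all 4 arrays.

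C8g encodes a chain of the lipocalin family, unlike the other chains of C8. It measured 1763, 1793, 1758, 1787, 1791 and 1869 on K289R arrays 1 to 6, against 1532, 1617, 1351, 1726, 1830 and 1647 on WT arrays 1 to 6. The K289R arrays were close together and above all WT arrays but WT 5, and WT 3 was the lowest. The log2 difference was 0.16 (95% interval 0.00 to 0.31, adjusted p = 0.402), and 0.07 without WT 1 and 3. On WT 3, therefore, C8g was at its lowest while C8a and C8b were at their highest.

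**Figure D3:**
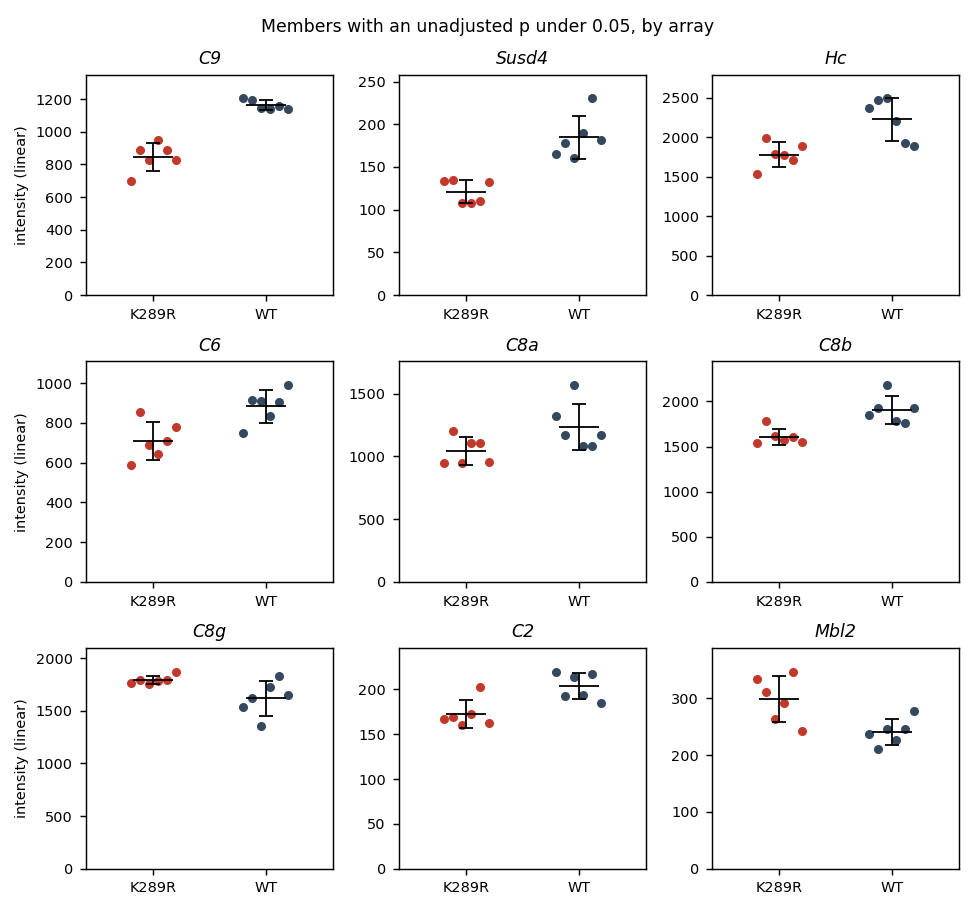
Linear intensity (vertical axes from 0) of the 9 members with an unadjusted p under 0.05 on each K289R array (red, left) and each WT array (dark, right). Horizontal bars are means and error bars SD, n = 6 each. For C9 and Susd4 the groups do not overlap, and for the other 7 they do.

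Susd4 fell by 0.61 on the log2 scale. This membrane protein and its soluble form are known to inhibit the classical and alternative pathways in cell and plasma assays. Its intensity was 133, 135, 108, 108, 111 and 132 on K289R arrays 1 to 6, against 165, 179, 161, 190, 231 and 182 on WT arrays 1 to 6. All 6 K289R arrays lay below all 6 WT arrays, with WT 5 the highest. Means were 121 ± 13.8 in K289R and 185 ± 25.0 in WT (SD, n = 6 each), and Susd4 was 1.52-fold lower (95% interval 1.32 to 1.75, limma adjusted p = 0.00426, probe set 10352439). With K289R 1 and 3 left out it was -0.60 (adjusted p = 0.0237), -0.69 without WT 1 and 3 (adjusted p = 0.00548) and -0.69 without all 4 arrays (adjusted p = 0.0182). The other measured genes named for sushi domains, Susd1, Susd2, Susd3 and Susd6, did not pass, with log2 differences from -0.15 (Susd3) to 0.16 (Susd6). Susd2, at 26.8 in K289R and 28.5 in WT, and Susd3, at 22.8 and 25.5, were dim. For these dim genes the lack of a call says little.

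Promoters of both genes that fell, and of Hc and C8b, are shown because their fitted differences were negative with small unadjusted p. The sequences are RefSeq's for build GRCm38.p6, from 250 bases before to 50 bases after the annotated start, on the strand of the gene. Capitals mark matches to CAAGGNCA (bound by LRH-1 and its relatives), GTTAAT (part of the HNF1 motif), TTGCNNAA (C/EBP) or TTCNNNGAA (STAT), searched on both strands. They cover chr15:6445096-6445395 (C9, plus strand), chr1:182763966-182764265 and chr1:182764646-182764945 (Susd4, both start sites, plus strand), chr2:35061363-35061662 (Hc, minus strand) and chr4:104766067-104766366 (C8b, plus strand).
C9: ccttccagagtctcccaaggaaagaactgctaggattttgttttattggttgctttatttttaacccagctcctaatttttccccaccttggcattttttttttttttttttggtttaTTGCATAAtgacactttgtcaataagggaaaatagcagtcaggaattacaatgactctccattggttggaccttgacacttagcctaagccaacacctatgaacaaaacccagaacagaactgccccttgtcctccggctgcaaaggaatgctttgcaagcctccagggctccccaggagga
Susd4, start site 1: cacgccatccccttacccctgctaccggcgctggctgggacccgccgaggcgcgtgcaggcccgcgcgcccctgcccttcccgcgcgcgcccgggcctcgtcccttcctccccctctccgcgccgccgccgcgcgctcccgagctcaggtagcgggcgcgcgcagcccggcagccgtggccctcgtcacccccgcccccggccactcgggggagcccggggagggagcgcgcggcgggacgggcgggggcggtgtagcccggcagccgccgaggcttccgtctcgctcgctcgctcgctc
Susd4, start site 2: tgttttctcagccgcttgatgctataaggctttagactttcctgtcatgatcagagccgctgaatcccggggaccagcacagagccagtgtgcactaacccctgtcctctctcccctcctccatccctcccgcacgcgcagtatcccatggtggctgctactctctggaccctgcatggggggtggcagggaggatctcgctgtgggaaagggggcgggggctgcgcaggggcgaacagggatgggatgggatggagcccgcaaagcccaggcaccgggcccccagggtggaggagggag
Hc: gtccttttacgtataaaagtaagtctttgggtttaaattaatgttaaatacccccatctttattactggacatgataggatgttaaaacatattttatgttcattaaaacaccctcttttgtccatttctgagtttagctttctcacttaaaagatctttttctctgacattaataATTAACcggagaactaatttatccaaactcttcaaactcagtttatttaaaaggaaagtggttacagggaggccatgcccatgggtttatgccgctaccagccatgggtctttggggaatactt
C8b: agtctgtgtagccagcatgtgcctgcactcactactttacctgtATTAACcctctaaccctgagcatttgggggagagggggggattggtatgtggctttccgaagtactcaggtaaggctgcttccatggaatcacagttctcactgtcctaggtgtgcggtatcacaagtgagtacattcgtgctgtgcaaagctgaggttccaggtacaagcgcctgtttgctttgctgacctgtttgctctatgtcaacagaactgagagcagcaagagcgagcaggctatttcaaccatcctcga
C9 holds 1 C/EBP match, 132 bases before its start, and Hc and C8b hold 1 HNF1 match each, 74 and 206 bases before theirs. No listed letters occur in either Susd4 window. The first Susd4 window is 81.3% G or C with 50 CG pairs, outside the range of the 27 windows of the other members, which run from 32.7% to 66.7% with at most 21 CG pairs. The second Susd4 window, at 63.7% with 12 CG pairs, lies inside that range, as does C9 at 42.7% with 1 CG pair.

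Windows were found for 27 of the 36 measured members (29 windows, since 2 genes have 2 start sites). CAAGGNCA was in 2 of the 29 (6.90%), those of F10 and Serpinc1, against 6.71% of all 32851 windows. GTTAAT was in 8 (27.6%, against 7.10% of all windows), those of C4bp, C8a, C8b, F13b, F2, Hc, Proz and Vtn. TTGCNNAA was in 4 (13.8% against 10.8%) and TTCNNNGAA in 5 (17.2% against 8.30%). A match is a run of letters and not a measured binding site.

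None of the 6 genes of the classical and lectin pathways passed. C2, the protease of the C3 convertase, measured 166, 169, 161, 172, 202 and 162 on K289R arrays 1 to 6, against 219, 193, 214, 193, 217 and 185 on WT arrays 1 to 6. Of the K289R arrays 5 lay below all WT arrays, and K289R 5 lay within the WT range. The log2 difference was -0.24 (95% interval -0.40 to -0.09, adjusted p = 0.176), and -0.16 without K289R 1 and 3 and WT 1 and 3.

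Mbl2, which encodes a mannose-binding lectin that recognizes microbial sugars, had a positive difference that did not pass. It measured 334, 312, 265, 293, 347 and 242 on K289R arrays 1 to 6, against 238, 211, 246, 227, 247 and 278 on WT arrays 1 to 6. K289R 3 and K289R 6 lay inside the WT range and 4 K289R arrays lay above it. The log2 difference was 0.30 (95% interval 0.11 to 0.50, adjusted p = 0.184). The related lectin Mbl1 had a difference of 0.04, and the lectin-bound proteases Masp1 and Masp2 had 0.01 and 0.03.

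C4b, the fourth component, measured 1527 ± 137 in K289R and 1666 ± 200 in WT (SD, n = 6 each), a log2 difference of -0.12. Its near-identical neighbour C4a (no member) had -0.30 (adjusted p = 0.169), and transcripts of such copies can bind the same probes, so the C4b and C4a values are uncertain as separate measurements. Cfb, the alternative pathway protease factor B, measured 1317 ± 70.9 in K289R and 1445 ± 215 in WT (SD, n = 6 each), a log2 difference of -0.12 (95% interval -0.31 to 0.06, adjusted p = 0.594), which became 0.0016 once WT 1 and 3 were left out. Of the fluid-phase inhibitors, Cfi, which cleaves C3b and C4b, and C4bp, which binds C4b, had log2 differences of -0.06 and -0.09 and did not pass.

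The 20 coagulation members were close to equal between the genotypes, and the arrays were precise enough to bound their differences. All 20 had an adjusted p of at least 0.475, and their log2 fold changes ran from -0.12 (Serping1) to 0.17 (F13b). Their 95% intervals, not adjusted for the number of genes, stayed between -0.26 and 0.36, so that for each gene a fall beyond 1.20-fold or a rise beyond 1.28-fold lay outside its interval. The spread between mice was also small, with a median SD on the log2 scale of 0.07 in K289R and 0.07 in WT for coagulation members, against 0.13 and 0.14 for complement members.

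Among the vitamin K-dependent proteins, prothrombin (F2) measured 2224, 2226, 2371, 2278, 2405 and 2226 on K289R arrays 1 to 6, against 2353, 2278, 2234, 2302, 2240 and 2236 on WT arrays 1 to 6. The groups lay on top of each other, with a log2 difference of 0.01 (95% interval -0.11 to 0.13). The protease F9 measured 702 ± 57.7 in K289R and 732 ± 54.4 in WT (SD, n = 6 each), a log2 difference of -0.06 (95% interval -0.22 to 0.09). The proteases F7 and F10 had log2 differences of 0.00 and -0.04. The anticoagulant protein C (Proc), its cofactor protein S (Pros1) and protein Z (Proz) had 0.06, -0.06 and 0.01.

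Of the cofactors, F5, which serves factor X, had a log2 difference of 0.03. F8, which serves factor IX and is made largely by endothelial cells of the liver, measured 150, 171, 158, 198, 195 and 150 on K289R arrays 1 to 6, against 157, 137, 155, 172, 222 and 171 on WT arrays 1 to 6. Its range was wide in both groups, and the difference was 0.02 (95% interval -0.21 to 0.25), with a sign that turned in several settings. Markers of liver sinusoidal endothelium had a mean log2 level of 7.26 to 7.53 in K289R and 7.03 to 7.38 in WT. F13b, the carrier subunit of the enzyme that cross-links fibrin, measured 388 ± 41.1 in K289R and 347 ± 42.8 in WT (SD, n = 6 each), a log2 difference of 0.17 (95% interval -0.03 to 0.36, adjusted p = 0.481). In the contact system, F11 measured 290 ± 35.7 in K289R and 276 ± 29.6 in WT (SD, n = 6 each), a log2 difference of 0.07 (95% interval -0.13 to 0.27). F12 and kininogen (Kng1) had differences of -0.05 and 0.01.

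The inhibitors included the 1 coagulation gene whose groups did not overlap. Heparin cofactor II (Serpind1), which inhibits thrombin, measured 2569, 2654, 2605, 2534, 2584 and 2644 on K289R arrays 1 to 6, against 2372, 2507, 2422, 2436, 2403 and 2417 on WT arrays 1 to 6. Every K289R array was above every WT array, yet the difference was only 1.07-fold (log2 0.10, 95% interval -0.01 to 0.21, adjusted p = 0.475), and with quantile normalization the groups did overlap. Its SD on the log2 scale was 0.03 in both groups, and limma moderates so small a spread toward that of other genes. Antithrombin (Serpinc1) measured 3325 ± 82.7 in K289R and 3218 ± 78.0 in WT (SD, n = 6 each), a log2 difference of 0.05 (95% interval -0.07 to 0.16). Apoh, a phospholipid-binding plasma protein, had a difference of 0.05. C1 inhibitor (Serping1), which restrains both the first complement proteases and the contact system, measured 2608 ± 221 in K289R and 2830 ± 106 in WT (SD, n = 6 each), a log2 difference of -0.12 (95% interval -0.26 to 0.02, adjusted p = 0.487). The plasmin inhibitor Serpinf2 measured 2796 ± 142 in K289R and 2996 ± 237 in WT (SD, n = 6 each), a log2 difference of -0.10 (95% interval -0.24 to 0.04). Plasminogen (Plg) and vitronectin (Vtn), which stabilizes the plasminogen activator inhibitor, had differences of 0.03 and -0.06.

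**Figure D4:**
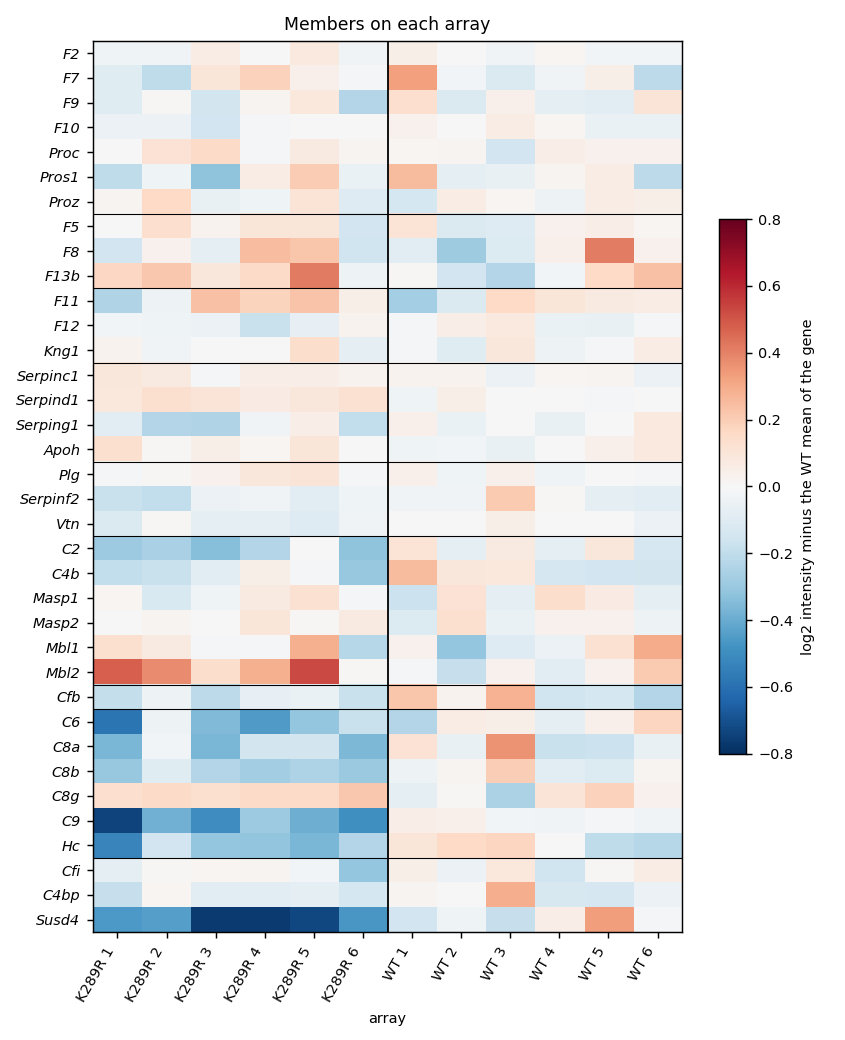
Log2 intensity of each measured member (rows, by role) on each array (columns, K289R left of the line and WT right), minus the gene's mean over the 6 WT arrays. C9 and Susd4 are blue on all K289R arrays, and the 20 coagulation rows at the top differ by at most 0.17 between group means.

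Further genes of both systems, from lists other than the members, gave no call. These lists too were chosen with earlier results of these data known, so they are no independent check. Of 25 measured coagulation genes, 34 complement genes and 7 genes of vitamin K use and factor secretion, 0 passed in limma and 5 of the 66 had an unadjusted p under 0.05 (7.58%, against 12% of all genes). The smallest p was that of C4a. Dim genes, with a mean log2 level below 5, were 11 of the 25 coagulation genes and 9 of the 34 complement genes. There were 0 among the 7 genes of vitamin K use and factor secretion. For a dim gene the lack of a call says little. The membrane inhibitor of pore assembly Cd59a measured 634 ± 103 in K289R and 494 ± 75.7 in WT (SD, n = 6 each), a log2 difference of 0.36 (adjusted p = 0.215). Its paralogue Cd59b had 0.32 (adjusted p = 0.286), and the C5a receptor C5ar1, dim at 21.9 ± 2.33 in K289R and 26.8 ± 3.01 in WT, had -0.29 (adjusted p = 0.178). Thrombomodulin (Thbd), dim at 30.5 ± 3.48 in K289R and 25.9 ± 3.05 in WT (SD, n = 6 each), had 0.24 (adjusted p = 0.296). The fibrinogen chains Fga, Fgb and Fgg had log2 differences of -0.22, -0.13 and -0.18 (adjusted p = 0.419, 0.513 and 0.415). C1qa, C1qb and C1qc, made by macrophages, had 0.03, 0.05 and 0.02.

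A few arrays stood apart in transcripts outside the set. The mean log2 level of 27 acute phase genes, none of them a member, was 8.62 to 9.17 in K289R, highest on K289R 4. In WT it was 9.83 on array 1, 9.91 on array 3 and 8.68 to 8.91 elsewhere. Among these genes Saa1, Saa2 and Orm2 had log2 differences of -0.70, -0.48 and -0.86 and did not pass (adjusted p = 0.662, 0.803 and 0.365). Saa2 measured 228 on K289R 4 and 19.8 to 73.2 on the rest of K289R. In WT it measured 246 on array 1, 254 on array 3 and 19.7 to 38.8 elsewhere. Over the 27 acute phase genes, 25 differences were negative and 2 positive, with a median of -0.22. In limma 0 of the 27 passed (lowest adjusted p = 0.0637). An unadjusted p under 0.05 was reached by 4, all with negative differences (14.8%, against 12% of all genes). Pancreatic acinar markers averaged 8.37 on K289R 1, 8.98 on K289R 3 and 4.14 to 4.42 on the remaining K289R arrays, against 4.21 to 4.40 in WT. The mean of 10 skeletal muscle markers was highest on WT 1 (6.63), then on K289R 3 (5.77), and 4.45 to 4.85 elsewhere. Their part in the results was not tested.

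Members differed in how they stood on WT 1, WT 3, K289R 1 and K289R 3. WT 3 was the highest WT array for 12 of the 36 members and WT 1 for 9, that is 33.3% and 25.0%, against 16.8% and 18.7% of all genes. Cfb measured 1240 to 1394 in K289R, and in WT 1667 on array 1, 1733 on array 3 and 1219 to 1463 elsewhere. WT 3 was the highest of all 12 arrays for 10 members (C4bp, C8a, C8b, Cfb, Cfi, F10, F12, Hc, Serpinf2 and Vtn) and the lowest for 4 (Apoh, C8g, F13b and Proc). K289R 1 was the lowest of all 12 for 7 members (C4bp, C6, C8b, C9, F2, Hc and Vtn) and the highest for 2 (Apoh and Serpinc1). K289R 3 was the lowest for 5 (C2, C8a, F10, Pros1 and Serping1) and the highest for 2 (F11 and Proc). C9 measured 1206 and 1144 on WT 1 and WT 3 and 1142 to 1196 in the rest of WT, and Susd4 was lowest in WT on them (165 and 161).

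**Figure D5:**
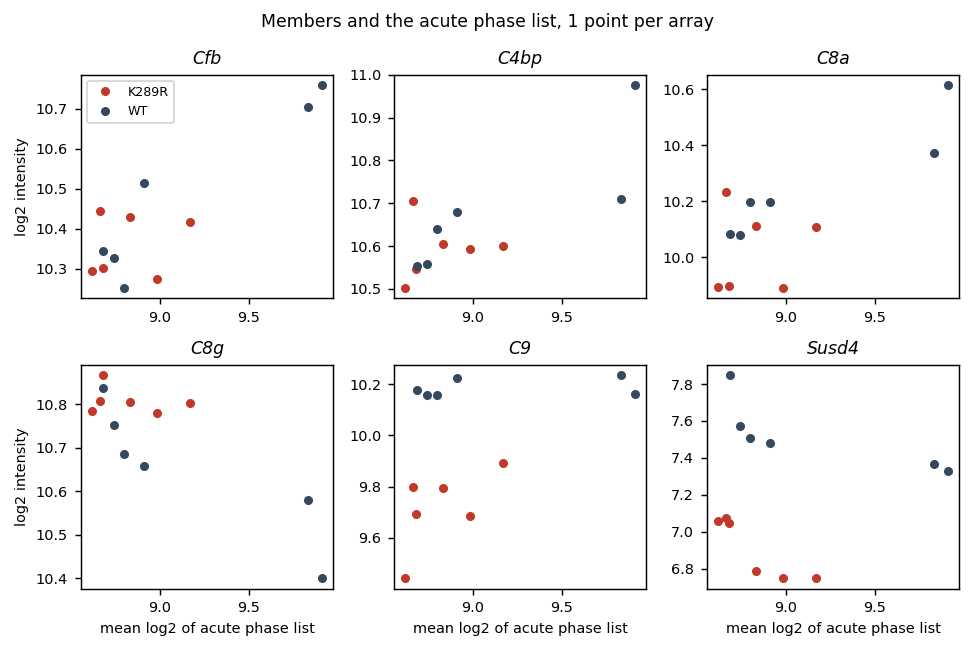
Log2 intensity of 6 members (vertical axes, not from 0) against the mean log2 level of 27 acute phase genes (horizontal axes), 1 point per array, K289R red and WT dark. WT 1 and WT 3 are the 2 points at 9.83 and 9.91, where Cfb and C8a are high and C8g is low, while all WT points of C9 lie above all K289R points.

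Regulators of acute phase and liver genes were read from the same fit. Socs3, which inhibits cytokine signalling through STAT3, and Xbp1, a transcription factor of secretory load, were the called genes among 23 measured, with log2 differences of -0.51 and -0.51 (adjusted p = 0.0184 and 0.00548). These are 8.70% of the 23, against 0.572% of all genes, and 7 of the 23 had an unadjusted p under 0.05, 5 with negative and 2 with positive differences. Socs3 measured 41.4 ± 4.74 in K289R and 59.1 ± 7.77 in WT (SD, n = 6 each). Xbp1 measured 848 ± 45.0 in K289R and 1211 ± 151 in WT (SD, n = 6 each). WT 1 and WT 3 were the highest WT arrays for both, at 72.1 and 62.7 for Socs3 and 1305 and 1412 for Xbp1. The other WT arrays, at 50.6 to 59.3 and 960 to 1228, lay above every K289R array. The part of WT 1 and WT 3 in the Socs3 and Xbp1 calls was not tested. Nr5a2 had a log2 difference of 0.10 (adjusted p = 0.582), and whether its probes cover the base change was not examined, so it does not check the genotype. C6 and C8b also belong to a list of 15 measured male-biased liver genes, of which 0 passed in limma. An unadjusted p under 0.05 was found for 9 of the 15 (60%, against 12% of all genes), 7 with negative and 2 with positive differences. The median over the list was -0.24. The mean log2 level of the male-biased list was 9.33 to 9.70 in K289R and 9.44 to 9.88 in WT, and the groups overlapped. C6 and C8b are themselves among the 9 and among the 7 with negative differences, so these counts do not stand apart from them. Of 11 measured female-biased liver genes, 3 passed, all higher in K289R (27.3%, against 0.572% of all genes). These were Cyp17a1, Cyp2b9 and Acot3, named after their values were seen, with log2 differences of 2.08, 2.45 and 0.67. The mean log2 level of the female-biased list was 5.21 to 5.51 in K289R and 4.57 to 4.84 in WT, and the groups did not overlap. That mean includes the 3 called genes, so its gap is no measure of the list as a whole. The median difference over the female-biased list was 0.13, with 8 positive and 3 negative differences. Of its 11 genes, 4 were dim, with a mean log2 level below 5. All mice were male, and the part of either list in the values of C6 and C8b was not tested.

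Several members are neighbours in the genome. C8a and C8b adjoin on chromosome 4 with no protein-coding gene between them in the RefSeq order, and both had -0.24. C6 and C9 lie on chromosome 15 with 8 protein-coding genes between them. F7, F10 and Proz adjoin on chromosome 8, with differences of 0.00, -0.04 and 0.01. C2 and Cfb adjoin on chromosome 17, with -0.24 and -0.12. Susd4 lies on chromosome 1, which also carries Nr5a2 and thus the knock-in, with 360 protein-coding genes between them. The other members on that chromosome, F13b (with 9 protein-coding genes between it and Nr5a2), C4bp, Serpinc1 and F5, did not pass. Of 1122 chromosome 1 genes 0.802% passed, against 0.558% of the rest. Whether DNA linked to the knock-in differs there was not tested.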

How the data were processed

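Liver RNA of 12 mice was hybridised to Affymetrix gene arrays, 1 array per mouse. The deposited intensities are linear and summarized to 1 value per probe set. They were made with Affymetrix Expression Console, per the submitters' processing notes. How it summarized, background-corrected and normalized them is not stated in any source used here. Array medians of 26.8 to 29.2 show a common scale. For arrays, their number limits the precision.

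Of 35556 rows, 21789 had 1 gene symbol in the platform annotation, 1621 had several and 12146 were not listed. A gene (19938 in all) was read from its brightest probe set by mean log2 over all arrays. Symbols of 21698 rows were updated through the RefSeq table (GRCm38.p6) by gene ID. Log2 was taken without a pseudocount. K289R minus WT was fitted with limma 3.58.1 (R 4.3.3, lmFit and eBayes) over all genes and 12 arrays, without covariates, with two-sided Benjamini-Hochberg adjusted p under 0.05 as the call. Means and SD are of linear intensities, and fold changes come from log2 means. On simulated data for this comparison (19938 genes), 87 of 100 genes changed 1.5-fold and 98 of 100 changed 2-fold were called, with 5 unchanged genes among 190 calls. Figures were drawn with matplotlib 3.10.9.

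The members and all lists were chosen with earlier results of these data known. Named with values on every array were members with an unadjusted p under 0.05, to which F2, F8 and Serpind1 were added, Serpind1 after its values were seen. Named with group values were the member of each role with the largest difference and a few fixed genes, to which C4b was added after its values were seen. The fixed set also held C3. Other members are given by their differences. Alternatives of scaling, filtering, variance model and arrays used are in the closing section.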

Additional observations from a re-analysis of the deposited data

Results flagged for a closer look

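In 72 groups of 6 arrays (36 members in K289R and in WT), 8 had an array whose gap to the next was large for the range of the group by Dixon's ratio, above its 95% critical value for 6 samples. Chance flags about 1 in 20 groups.

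K289R 5 was high for C2, at 202 against 161 to 172 on the rest of K289R (ratio 0.692). K289R 2 was high for C8b, at 1780 against 1543 to 1615 (ratio 0.682). K289R 6 was high for C8g, at 1869 against 1758 to 1793 (ratio 0.672), and low for Cfi, at 1031 against 1216 to 1296 (ratio 0.721). K289R 3 was low for F10, at 456 against 490 to 509 (ratio 0.654).

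WT 3, which also had high acute phase transcripts, was high for Serpinf2, at 3456 against 2805 to 3011 on the rest of WT (ratio 0.661), and for C4bp, at 2016 against 1502 to 1675 (ratio 0.630). It was low for Proc, at 858 against 963 to 991 (ratio 0.804).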

How the results depend on the processing

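Calls of C9 and Susd4 held in each of the 21 settings planned, which were equal array medians, quantile normalization, no dim genes, the mean of probe sets, a trended and robust variance, array weights, a replicate block by mouse number, all rows of the table, a pseudocount of 16 and each of 12 arrays left out in turn. The 3 settings without arrays that stood apart were added after seeing the data. Without all 4 such arrays C9 did not pass (log2 difference -0.38, adjusted p = 0.0818) and 1 member was called. Leaving out 1 array gave -0.50 to -0.41 for C9 and -0.64 to -0.54 for Susd4, and 2 called members throughout. The count of all called genes was 75 without K289R 1 and 3, 65 without all 4 arrays, and 81 to 159 with 1 array left out. Members whose groups did not overlap numbered 2 with quantile normalization (C9 and Susd4), 3 to 5 with 1 array left out, and among further genes 0 to 1 was called (C4a, without K289R 5). Fewer arrays are compared in these settings, and no other cause was tested.

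Signs of differences near 0 turned. F8 had -0.027 with quantile normalization, -0.018 with array weights and -0.031 without WT 1 and 3, with -0.038 to 0.10 when 1 array was left out. F2 ran from -0.0058 to 0.019 with 1 array left out. Cfb had 0.0016 without WT 1 and 3 and 0.040 without all 4 arrays, and F9 had 0.012 without all 4. The replicate block gave adjusted p = 0.0223 for C9 and 0.0185 for Susd4 and changed no call of a member. Deviations of same-numbered mice correlated from -0.23 to 0.23, and only for number 4 was the same-numbered mouse the closest match. The labels state no pairing by number, and these few correlations cannot exclude one. Members with an unadjusted p under 0.05 numbered 9 with all arrays, 11 with the pseudocount (9 of them complement genes) and 5 without all 4.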
